A study of Mus musculus with 23 samples.

Results

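The integrated stress response and the enzymes that charge transfer RNAs (tRNAs) were followed as 36 genes, chosen by symbol, out of 52636 genes in the count tables of a lipopolysaccharide (LPS) time course in mouse macrophages. The members were 4 transcription factors (Atf4, Atf5, Atf3 and Ddit3), 4 stress regulators (Ppp1r15a, Ddit4, Sesn2 and Chac1), 8 enzymes of amino acid and one-carbon metabolism (Asns, Psat1, Phgdh, Psph, Shmt2, Mthfd2, Aldh1l2 and Pck2) and 20 genes of cytosolic aminoacyl-tRNA synthetases (Aars, Cars, Dars, Eprs, Gars, Hars, Iars, Kars, Lars, Mars, Nars, Qars, Rars, Sars, Tars, Vars, Wars, Yars, Farsa and Farsb). Each symbol matched 1 row of the tables, and all 36 passed the filter on low counts together with 15782 genes in all.

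In the integrated stress response, kinases that sense double-stranded RNA, unfolded proteins, missing amino acids or missing haem phosphorylate the initiation factor eIF2. Protein synthesis then slows while the Atf4 message is translated preferentially, so the amount of Atf4 mRNA is no measure of ATF4 protein. ATF4 and its partners are known to switch on genes of serine, asparagine and one-carbon metabolism, amino acid transporters and many of the synthetases, which join each amino acid to its tRNA. In macrophages, Atf3 is a known target of Toll-like receptor signalling and Wars a known target of interferons.

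The cells were bone marrow-derived macrophages (BMDMs), which are grown in culture from bone marrow, and their polyadenylated RNA was sequenced in 23 libraries. Libraries labelled Stk40 knockout (KO) held cells without LPS at T0 and with LPS at T6, T16 and T32, with 3 libraries at each of the 4 time points. Libraries labelled wild type (WT) held the same treatments, with 3 libraries at T0, T6 and T32 and 2 at T16. Stk40 encodes a pseudokinase known as a partner of the ubiquitin ligase COP1. The Stk40 allele, the strain, sex and age of the mice, the LPS dose and the unit of the time labels are not stated. Nothing in the labels says whether libraries of a group came from separate mice or cultures, so the p-values rest on the spread among these libraries, part of which may be technical.

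The libraries held 19455080 to 44097733 counts. Macrophage genes were abundant in all of them by CPM, counts relative to the TMM-scaled library size. Lyz2 had 9560 to 17600 CPM, Csf1r 1070 to 3010 CPM and Adgre1 723 to 4710 CPM, whereas Cd163 stayed at 0.0589 to 1.29 CPM. Stk40 mRNA was not lower in the libraries labelled KO: averaged over the time points it was 0.32 ± 0.08 higher on the log2 scale than in WT libraries (edgeR adjusted p = 0.0063), so the genotype rests on the labels. A set of 4 WT libraries, 1 at each time point, and no KO library held Y-linked transcripts. A further set of 4 libraries stood apart from their groups by mitochondrial share, leading transcripts or correlation: KO T0 replicate 1, KO T6 replicate 2, WT T6 replicate 2 and WT T16 replicate 2. The last of these is also 1 of the 4 with Y-linked transcripts. In bulk RNA, a smaller number of cells of a type and less RNA per cell cannot be told apart.

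Most members changed from T0 to T6 within each genotype, downward more often than upward. No untreated library is labelled T6, T16 or T32, so effects of LPS and of time in culture cannot be told apart. Levels are given as RPKM, reads per transcript length and TMM-scaled library size, differences as log2 fold changes ± standard error (SE), and a gene is called changed below an adjusted p of 0.05 in edgeR's quasi-likelihood test. At T6, 8 members were higher and 17 lower than at T0 in KO, against 26.2% and 32.4% of all genes tested, and 8 were higher and 18 lower in WT, against 27.3% and 31.9%. The calls were shared by 7 members that rose and 17 that fell in both genotypes, and no member moved in opposite directions. The median member changed by −0.61 in KO and −0.48 in WT, beside −0.16 and −0.14 over all genes tested. Scaled by library totals alone, the median of all genes at T6 was −0.97 in KO and −0.92 in WT, and 5 members were higher and 24 lower in KO, 5 higher and 28 lower in WT.

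By T16, 8 members were higher and 9 lower than at T0 in KO (20.4% and 23.3% of all genes), and 12 were higher and 4 lower in WT (18.8% and 17.2%). At T32 the counts were 7 higher and 5 lower in KO (18.2% and 20% of all genes) and 11 higher and 5 lower in WT (24.5% and 21.9%). These late directions depended on the scaling. With library totals the counts became 1 higher and 20 lower in KO and 2 higher and 8 lower in WT at T16, and 3 higher and 11 lower in KO and 3 higher and 12 lower in WT at T32, while the median of all genes shifted to −0.49 in KO and −0.44 in WT at T16 and to −0.36 and −0.31 at T32. From T6 to T32, 22 members rose and 9 fell in KO (26.4% and 23.3% of all genes), and 18 rose and 7 fell in WT (27.5% and 23%). Library totals turned these counts into 26 higher and 4 lower in KO and 25 higher and 5 lower in WT. Leaving out the 4 libraries that stood apart gave 13 higher and 6 lower in KO and 14 higher and 11 lower in WT at T32 against T0. Summed CPM of 11 neutrophil and granulocyte precursor genes were 195 to 286 at T32 against 649 to 754 at T0 in KO and 70.6 to 89.4 against 344 to 644 in WT, with 10 of the 11 called lower at T32 in KO and 9 of 11 in WT. Summed stromal and endothelial genes were at 134 to 314 CPM at T6, 154 to 320 at T16 and 113 to 308 at T32 against 71.8 to 84.3 at T0 in KO, and at 90 to 281, 420 to 436 and 74 to 456 against 42.7 to 208 in WT. The mitochondrial share of counts was 0.23% to 0.53% at T16 and T32, against 1.38% to 1.82% in 5 of the 6 T0 libraries. The part of these measures in the changes from T0 was not tested.

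**Figure D1:**
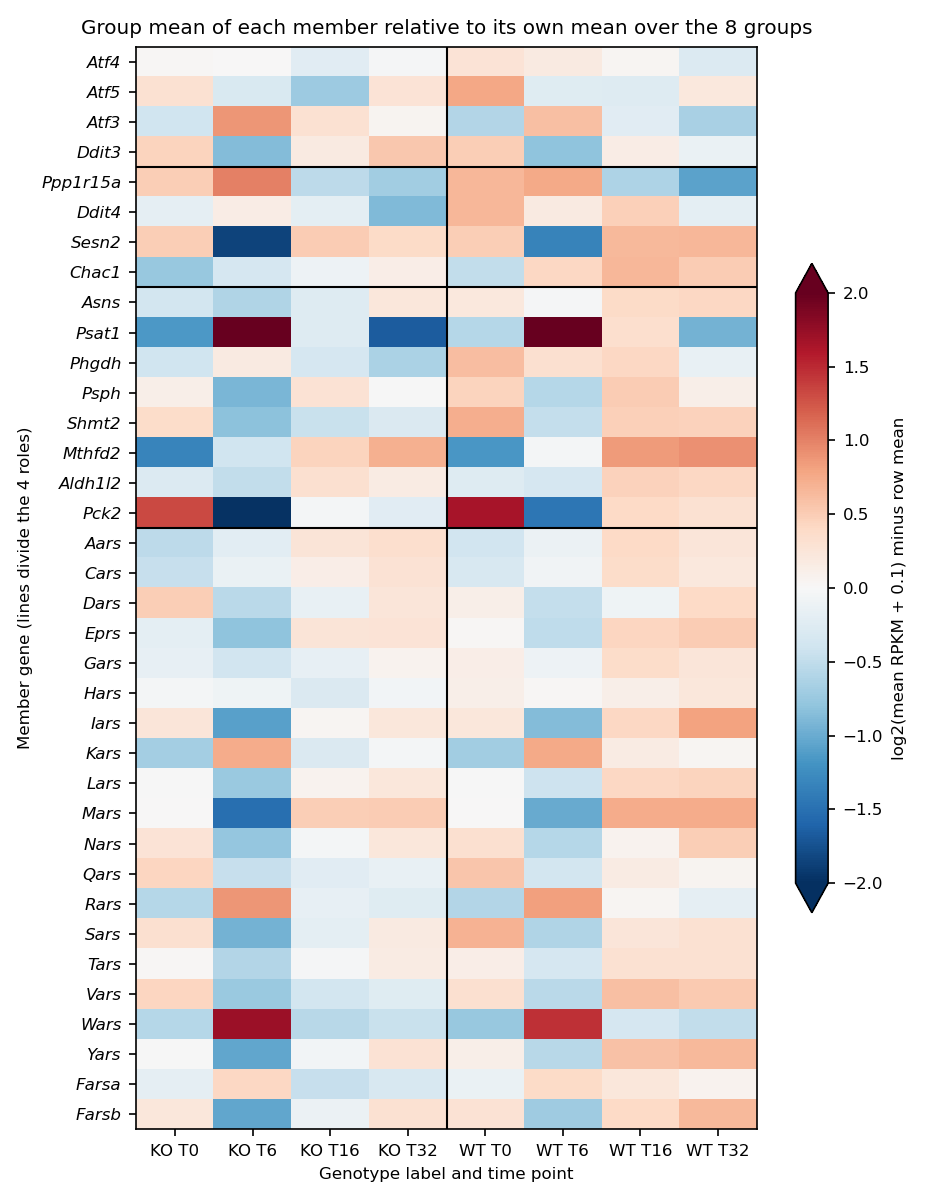
Mean level of the 36 members in the 8 groups, KO at the left and WT at the right, as log2(mean RPKM + 0.1) minus the gene's own mean over the groups; red is above and blue below that mean. Psat1, Wars, Kars and Rars peak at T6 in both genotypes, and Pck2, Sesn2, Mars and Iars are lowest there.

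Of the 4 transcription factors, Atf3 rose and Ddit3 fell at T6 in both genotypes, Atf5 fell in WT, and Atf4 passed no test. Atf4 in KO libraries stood at 211, 218 and 282 RPKM at T0, 136, 386 and 178 at T6, 207, 178 and 210 at T16, and 232, 210 and 242 at T32. In WT libraries it stood at 294, 238 and 309 RPKM at T0, 194, 394 and 205 at T6, 193 and 287 at T16, and 192, 178 and 204 at T32. The highest values, 386 in KO and 394 in WT, both came from replicate 2 of T6, which are among the libraries that stood apart, and the groups overlapped at T6. Atf4 changed by −0.02 ± 0.30 at T6 in KO and −0.09 ± 0.30 in WT (edgeR adjusted p = 0.95 and 0.82). Without the 4 libraries the same changes were −0.66 and −0.48 with adjusted p = 0.0012 and 0.0072. At T32 against T6 in KO, Atf4 stood at −0.03, and without the 4 libraries at 0.53 (adjusted p = 0.0044).

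Atf5, a relative of ATF4 that is also controlled at translation, had 50.2, 47.2 and 61.1 RPKM at T0, 17.6, 60.1 and 25.6 at T6, 26.5, 24.3 and 26.5 at T16, and 58.2, 46 and 50.2 at T32 in KO libraries. The WT libraries held 79.1, 68.6 and 71.1 RPKM at T0, 26.4, 51.9 and 29.8 at T6, 29.7 and 41.3 at T16, and 52.2, 46.3 and 49.1 at T32. Replicate 2 of T6 was again the highest of its group in both genotypes, and it alone put KO T6 in the range of KO T0. Atf5 fell at T6 in WT with a log2 change of −1.02 ± 0.31 (edgeR adjusted p = 0.0074), while the KO value was −0.62 ± 0.30 (adjusted p = 0.088), or −1.32 without the 4 libraries (adjusted p = 7.4e-07). At T16 it was lower with a log2 change of −1.04 ± 0.31 in KO and of −1.04 ± 0.35 in WT (adjusted p = 0.01 and 0.025). The WT call at T16 ended without WT T0 replicate 1 (−0.96, adjusted p = 0.065) or WT T16 replicate 1 (−0.82, adjusted p = 0.18). Atf5 shares 82 exonic bases with Nup62 and with Il4i1 on the opposite strand, and the kit did not mark strand.

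Atf3, a repressor and activator of the same factor family, had 164, 137 and 156 RPKM at T0, 345, 373 and 385 at T6, 253, 242 and 245 at T16, and 192, 234 and 192 at T32 in KO libraries. In WT libraries Atf3 had 123, 137 and 139 RPKM at T0, 326, 268 and 319 at T6, 128 and 213 at T16, and 124, 88.8 and 169 at T32. All 6 libraries at T6 lay above all 6 at T0, and at T32 the KO libraries (192 to 234) lay above the WT libraries (88.8 to 169). Atf3 rose at T6 by 1.28 ± 0.19 in KO and 1.20 ± 0.19 in WT (edgeR adjusted p = 1e-05 and 2.2e-05). In KO it was still higher at T16 (0.70 ± 0.19, adjusted p = 0.0062); the WT value there was 0.36 ± 0.21 (adjusted p = 0.19). Atf3 was the only member called higher in KO than in WT at a single time point, by 0.69 ± 0.19 at T32 (adjusted p = 0.034; 3.05% of all genes were higher and 3.34% lower). That call ended when any of the 3 KO T32 libraries or WT T32 replicate 1 or 2 was left out (0.49 to 0.75, adjusted p = 0.06 to 0.2), and with library totals (0.51, adjusted p = 0.051). Averaged over the time points, Atf3 was 0.42 ± 0.10 higher in KO (adjusted p = 0.0045), a call that no single library ended.

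Ddit3, which encodes the stress factor CHOP, had 207, 143 and 198 RPKM at T0, 49.6, 113 and 57.8 at T6, 158, 137 and 165 at T16, and 203, 170 and 215 at T32 in KO libraries. For WT the libraries held 213, 149 and 204 RPKM at T0, 57.6, 102 and 71.3 at T6, 101 and 199 at T16, and 113, 102 and 153 at T32 of Ddit3. At T6 every library was below every T0 library of its genotype, and at T32 the KO libraries (170 to 215) were above the WT libraries (102 to 153). Ddit3 fell at T6 with a log2 change of −1.32 ± 0.29 in KO and of −1.30 ± 0.29 in WT (edgeR adjusted p = 0.00062 and 0.00071). From T6 to T32 it rose by 1.42 ± 0.29 in KO (adjusted p = 0.00041), and the WT value was 0.68 ± 0.29 (adjusted p = 0.055). The KO minus WT difference at T32 was 0.67 ± 0.29 and did not pass (adjusted p = 0.19). It passed without the 4 libraries that stood apart (0.67, adjusted p = 0.015). Ddit3 shares 105 exonic bases with a second protein-coding Ddit3 entry on the same strand and 68 with Mars on the opposite strand.

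**Figure D2:**
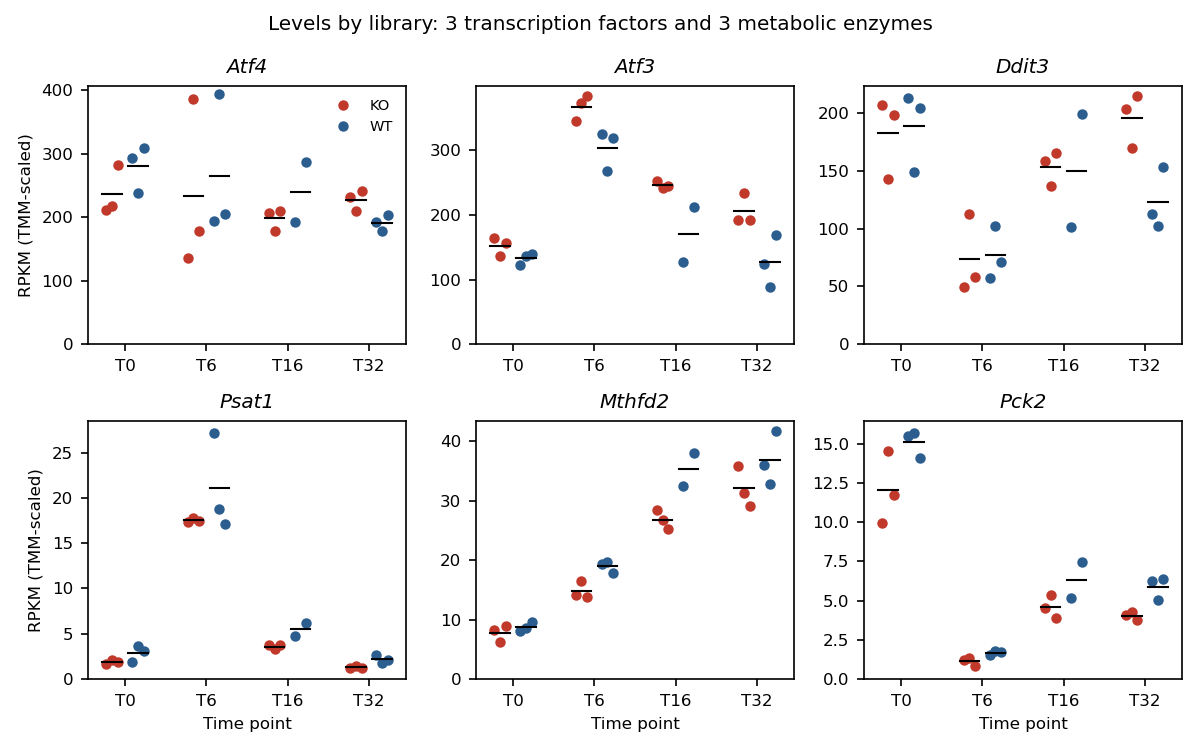
RPKM of Atf4, Atf3, Ddit3, Psat1, Mthfd2 and Pck2 in each library by time point, KO in red at the left of each pair and WT in blue at the right, with a bar at the group mean. Psat1 peaks at T6, Mthfd2 climbs to T32 and Pck2 is lowest at T6 in both genotypes.

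Because ATF4 and its partners are known to act through C/EBP-ATF response elements, the 250 bases before the annotated start were searched for the core TGATGNAA on both strands. RefSeq windows on GRCm38.p6 were matched for 27 of the 36 members, and 7 of these (25.9%) held a match, against 1056 of 27025 genes with a window (3.91%). The 7 were Pck2, Atf3, Chac1, Aars, Tars, Gars and Asns. The stretches of the 4 whose shown bases lie outside annotated exons are printed 5′ to 3′ on the strand of the gene, with the match in capitals. In these 4 the match runs on the opposite strand, so the capitals read as its reverse complement.
Pck2, chr14:55540123-55540210, plus strand: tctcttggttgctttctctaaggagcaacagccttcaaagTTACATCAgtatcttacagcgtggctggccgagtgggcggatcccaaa
Atf3, chr1:191183396-191183483, minus strand: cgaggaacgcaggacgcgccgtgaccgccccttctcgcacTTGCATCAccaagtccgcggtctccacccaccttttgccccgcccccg
Chac1, chr2:119351009-119351096, plus strand: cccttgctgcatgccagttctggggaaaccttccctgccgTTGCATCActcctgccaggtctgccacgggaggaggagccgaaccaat
Gars, chr6:55037931-55038000, plus strand: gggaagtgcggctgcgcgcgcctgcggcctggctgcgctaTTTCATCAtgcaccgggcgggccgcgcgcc
Members with such a match did not move together: at T6 Atf3 rose and Pck2 fell in both genotypes, and Gars was not called in either. A match describes these letters only, and binding was not measured.

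The stress regulators were led by Sesn2, a leucine sensor that holds back the growth kinase complex mTORC1. Sesn2 stood at 13.4, 9.56 and 9.54 RPKM at T0, 2.4, 1.68 and 2.09 at T6, 11.3, 12.5 and 8.9 at T16, and 11.7, 10.1 and 8.21 at T32 in KO libraries. The WT libraries stood at 12.2, 10.2 and 10 RPKM at T0, 3.33, 2.39 and 3.18 at T6, 11.5 and 12.6 at T16, and 12.2, 11.3 and 13.2 at T32. In both genotypes T6 lay far below the other time points, without overlap. Sesn2 fell at T6 with a log2 change of −2.39 ± 0.19 in KO and of −1.86 ± 0.19 in WT (edgeR adjusted p = 1.5e-09 and 3.9e-08), and had risen again by 2.27 ± 0.19 in KO and 2.03 ± 0.19 in WT at T32 against T6 (adjusted p = 6.6e-09 and 2.6e-08). The KO minus WT difference at T6 was −0.53 ± 0.19 (adjusted p = 0.3), with groups that touched at 2.4 in KO and 2.39 in WT.

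Ppp1r15a encodes GADD34, the phosphatase subunit that reverses eIF2 phosphorylation. It had 38.7, 31.1 and 40.1 RPKM at T0, 31.6, 84.2 and 41.1 at T6, 16.8, 15.3 and 22.1 at T16, and 15.7, 14.7 and 17.7 at T32 in KO libraries. In WT libraries Ppp1r15a had 45.9, 34.2 and 44.4 RPKM at T0, 37.7, 54.3 and 40.2 at T6, 16.1 and 17.7 at T16, and 11.5, 12.6 and 12.9 at T32. All T16 and T32 libraries lay below all T0 libraries, and replicate 2 was the highest T6 library of each genotype. Ppp1r15a was lower than at T0 with a log2 change of −1.02 ± 0.25 at T16 and −1.19 ± 0.25 at T32 in KO (edgeR adjusted p = 0.0031 and 0.001), and of −1.30 ± 0.29 and −1.75 ± 0.26 in WT (adjusted p = 0.0017 and 2.1e-05).

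Ddit4 (REDD1), another inhibitor of mTORC1, had 2.37, 3.47 and 2.71 RPKM at T0, 4.25, 3.02 and 3.47 at T6, 2.39, 3.85 and 2.21 at T16, and 1.63, 2.36 and 1.1 at T32 in KO libraries. Ddit4 in WT libraries had 4.1, 7.4 and 3.97 RPKM at T0, 4.35, 2.31 and 4.34 at T6, 3.58 and 5.52 at T16, and 3.04, 2.1 and 3.32 at T32. At T0 the KO libraries lay below the WT libraries, and at the later time points the genotypes overlapped. Averaged over time Ddit4 was lower in KO with a log2 difference of −0.58 ± 0.16 (edgeR adjusted p = 0.016), a call lost without WT T16 replicate 2 (−0.49, adjusted p = 0.059), with Y-linked transcripts as a covariate (−0.34, adjusted p = 0.17) or with the Y-positive WT libraries left out (−0.34, adjusted p = 0.24). Its fall at T32 in WT (−0.86 ± 0.32, adjusted p = 0.032) was lost without WT T0 replicate 2 (−0.51, adjusted p = 0.22), WT T32 replicate 1 (−0.92, adjusted p = 0.058) or WT T32 replicate 2 (−0.69, adjusted p = 0.13). In KO, Ddit4 fell from T6 to T32 with a log2 change of −1.07 ± 0.33 (adjusted p = 0.01), a call lost without KO T32 replicate 3 (−0.85, adjusted p = 0.056).

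Chac1, a glutathione-degrading enzyme, was scarce, with 10 to 64 counts a library. KO libraries held 0.368, 0.338 and 0.21 RPKM at T0, 0.569, 0.396 and 0.361 at T6, 0.539, 0.717 and 0.352 at T16, and 0.583, 0.747 and 0.615 at T32 of Chac1. WT libraries held 0.418, 0.329 and 0.407 RPKM at T0, 1.04, 0.388 and 0.999 at T6, 0.748 and 1.22 at T16, and 0.907, 0.669 and 1.03 at T32 of it. WT T6 replicate 2 lay inside the T0 range while the other two lay above it, and at T16 the KO libraries were below the WT libraries. In WT libraries its log2 change from T0 was 1.06 ± 0.35 (T6), 1.29 ± 0.37 (T16) and 1.13 ± 0.34 (T32; edgeR adjusted p = 0.013, 0.0099 and 0.011). The T6 call was lost without WT T6 replicate 1 (0.84, adjusted p = 0.081) or 3 (0.91, adjusted p = 0.054), and the T16 call without WT T16 replicate 2 (0.92, adjusted p = 0.13). In KO it was higher at T32 by 1.03 ± 0.35 (adjusted p = 0.024), a call lost without KO T0 replicate 3 (0.84, adjusted p = 0.1) or KO T32 replicate 2 (0.92, adjusted p = 0.083). Averaged over time it was lower in KO with a log2 difference of −0.61 ± 0.18 (adjusted p = 0.018), or −0.52 without WT T16 replicate 2 (adjusted p = 0.063) and −0.47 with Y-linked transcripts as a covariate (adjusted p = 0.11).

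Among the 8 enzymes, Psat1 and Mthfd2 rose and Psph, Shmt2 and Pck2 fell at T6 in both genotypes, while Asns, Phgdh and Aldh1l2 were not called. Psat1 makes phosphoserine in the middle step of serine synthesis. In KO libraries Psat1 had 1.68, 2.15 and 1.85 RPKM at T0, 17.3, 17.8 and 17.5 at T6, 3.71, 3.27 and 3.8 at T16, and 1.25, 1.46 and 1.2 at T32. WT libraries had 1.85, 3.63 and 3.13 RPKM at T0, 27.2, 18.8 and 17.1 at T6, 4.74 and 6.21 at T16, and 2.67, 1.82 and 2.08 at T32 of Psat1. The T6 libraries of both genotypes lay above all others, and at T32 the KO libraries (1.2 to 1.46) lay below the WT libraries (1.82 to 2.67). Psat1 rose 9.23-fold at T6 in KO (3.21 ± 0.23 on the log2 scale, edgeR adjusted p = 2.7e-10) and 7.31-fold in WT (2.87 ± 0.22, adjusted p = 9.8e-10). From T6 to T32 it fell with a log2 change of −3.74 ± 0.23 in KO and of −3.26 ± 0.23 in WT (adjusted p = 1.3e-10 and 6.6e-10). At T16 it was still higher than at T0, by 0.93 ± 0.22 in KO and 0.93 ± 0.23 in WT (adjusted p = 0.0018 and 0.004), the WT call being lost without WT T16 replicate 2 (0.72, adjusted p = 0.062) and both being lost with library totals (0.47 each).

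Psph, which completes serine synthesis, ranged over 1.1 to 3.91 RPKM in KO and 1.66 to 5.02 RPKM in WT. It fell at T6 with a log2 change of −1.07 ± 0.22 in KO and −1.06 ± 0.21 in WT (edgeR adjusted p = 0.00028 and 0.00026). Psph shares 452 exonic bases with a Cct6a transcript on the opposite strand. The within-library log2 ratio of Psat1 over Psph, which no library scaling can change, was 3.2 to 3.99 at T6 against −0.92 to −0.58 at T0 in KO, and 2.92 to 4.04 against −1.03 to −0.28 in WT. Phgdh, the enzyme of the first step, had only 0 to 14 counts a library. Phgdh in KO libraries had 0.053, 0.0366 and 0.0364 RPKM at T0, 0.0938, 0.124 and 0.12 at T6, 0.0373, 0.0188 and 0.0926 at T16, and 0.0202, 0 and 0.042 at T32. Phgdh in WT libraries had 0.253, 0.133 and 0.176 RPKM at T0, 0.106, 0.268 and 0.027 at T6, 0.144 and 0.159 at T16, and 0.0736, 0.0473 and 0.0856 at T32. At T0, T16 and T32 every KO library was below every WT library. Its average KO minus WT difference was −1.08 ± 0.28 (edgeR adjusted p = 0.0096), and counts this small limit what can be read from it. A processed pseudogene, Phgdh-ps1, could share some of its reads.

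Shmt2 and Mthfd2 carry out successive steps of mitochondrial one-carbon metabolism, and they moved apart. In KO libraries Shmt2 had 8.38, 10.4 and 8.42 RPKM at T0, 3.68, 4.62 and 3.47 at T6, 5.22, 5.37 and 4.77 at T16, and 6, 5.09 and 5.97 at T32. In WT libraries Shmt2 had 10.8, 11.9 and 12.5 RPKM at T0, 4.6, 5.15 and 5.26 at T6, 8.86 and 10.7 at T16, and 9.94, 9.72 and 9.32 at T32. Its T6 libraries were the lowest of each genotype, and the KO libraries lay below the WT libraries at T0, T16 and T32. Shmt2 fell at T6 with a log2 change of −1.21 ± 0.14 in KO and −1.23 ± 0.14 in WT (edgeR adjusted p = 2e-07 and 1.5e-07). It stayed lower than at T0 in KO at T16 (−0.82 ± 0.13) and T32 (−0.67 ± 0.13; adjusted p = 5.3e-05 and 5e-04). The WT values were −0.26 ± 0.15 and −0.28 ± 0.13 (adjusted p = 0.18 and 0.087). The change of its genotype difference between T0 and T16 was −0.56 ± 0.20 (adjusted p = 0.33).

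In KO libraries Mthfd2 had 8.26, 6.18 and 9.01 RPKM at T0, 14.2, 16.5 and 13.9 at T6, 28.4, 26.8 and 25.2 at T16, and 35.8, 31.4 and 29.2 at T32. In WT libraries Mthfd2 had 8.02, 8.58 and 9.54 RPKM at T0, 19.3, 19.7 and 17.9 at T6, 32.5 and 38.1 at T16, and 36.1, 32.8 and 41.7 at T32. T6, T16 and T32 lay above T0 in both genotypes without overlap. The log2 changes of Mthfd2 were 0.92 ± 0.14 (T6), 1.78 ± 0.14 (T16) and 2.04 ± 0.14 (T32) in KO, and in WT 1.12 ± 0.14, 2.02 ± 0.15 and 2.08 ± 0.14, all called by edgeR, with adjusted p at T32 of 2.1e-09 and 1.4e-09. With library totals the T6 values were 0.09 in KO and 0.31 in WT and no longer called (adjusted p = 0.56 and 0.053). Within libraries, the log2 ratio of Mthfd2 over Shmt2 was 2.29 to 2.62 at T32 against −0.75 to 0.1 at T0 in KO, and 1.75 to 2.16 against −0.47 to −0.39 in WT. Aldh1l2, which oxidises formyl-folate in mitochondria, had 1 to 51 counts a library, shares 1056 exonic bases with D10Wsu102e on the opposite strand and was called in no comparison.

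Pck2, the mitochondrial enzyme that makes phosphoenolpyruvate from oxaloacetate, showed the largest fall among the members at T6 in both genotypes. KO libraries had 9.91, 14.5 and 11.7 RPKM at T0, 1.24, 1.33 and 0.829 at T6, 4.52, 5.33 and 3.91 at T16, and 4.07, 4.27 and 3.75 at T32 of Pck2. WT libraries had 15.5, 15.7 and 14.1 RPKM at T0, 1.56, 1.77 and 1.7 at T6, 5.16 and 7.44 at T16, and 6.23, 5.04 and 6.36 at T32 of Pck2. The time points T0 and T6 were separated without overlap, and T16 and T32 lay between them. Pck2 fell at T6 with a log2 change of −3.40 ± 0.20 in KO and −3.17 ± 0.19 in WT (edgeR adjusted p = 1.8e-11 and 3.4e-11). It was still lower than at T0 at T32, with a log2 change of −1.58 ± 0.18 in KO and −1.36 ± 0.18 in WT (adjusted p = 1.1e-06 and 5.2e-06).

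Asns, the asparagine synthetase, had 7.41, 4.29 and 6.97 RPKM at T0, 3.82, 7.52 and 4.63 at T6, 7.44, 6.43 and 6.43 at T16, and 11.2, 9.03 and 8.04 at T32 in KO libraries. Asns in WT libraries had 8.14, 8.18 and 11.9 RPKM at T0, 6.99, 7.08 and 9.83 at T6, 10.8 and 10.3 at T16, and 13.5, 8.56 and 10.3 at T32. At T0 and T16 the KO libraries lay below the WT libraries, and LPS and T0 libraries overlapped except at T32 in KO. No LPS time point differed from T0 by the test in either genotype. Asns rose in KO from T6 to T32 by 0.83 ± 0.25 (edgeR adjusted p = 0.0095), a call lost without KO T6 replicate 1 (0.63, adjusted p = 0.062) or KO T32 replicate 1 (0.69, adjusted p = 0.051).

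The 20 synthetase genes split at T6: 5 rose and 12 fell in KO, where 26.2% of all genes rose and 32.4% fell, and 4 rose and 12 fell in WT, where 27.3% rose and 31.9% fell. The share that rose was no higher than that of all genes, and the 4 and the 12 of WT were called in the same direction in KO. Those that rose in both were Wars, Kars, Rars and Farsa, the last with a sign that flipped with library totals (−0.24 in KO and −0.29 in WT). The 12 that fell were Dars, Eprs, Iars, Lars, Mars, Nars, Qars, Sars, Tars, Vars, Yars and Farsb. The WT call of Dars ended without WT T0 replicate 3, WT T6 replicate 1 or WT T6 replicate 2 (adjusted p = 0.1 to 0.16). Cars passed the test in KO (0.32 ± 0.12, edgeR adjusted p = 0.024, against 0.25 ± 0.12 and adjusted p = 0.079 in WT), a call lost without KO T0 replicate 3 (adjusted p = 0.079) or KO T6 replicate 1 (adjusted p = 0.066), and with library totals its values were −0.51 in KO and −0.56 in WT. Aars, Gars and Hars were not called at T6 in either genotype.

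Wars, which charges tryptophan, moved the most. In KO libraries Wars had 29.8, 19.1 and 20.7 RPKM at T0, 108, 117 and 115 at T6, 23.7, 21 and 25.8 at T16, and 25.9, 24.5 and 25.5 at T32. In WT libraries Wars had 20.1, 21.7 and 19 RPKM at T0, 101, 79.3 and 106 at T6, 25.6 and 29 at T16, and 26.3, 22.1 and 25.5 at T32. The 6 libraries at T6 (79.3 to 117) stood above all 17 others (19 to 29.8). Wars rose 4.89-fold at T6 in KO (2.29 ± 0.15, edgeR adjusted p = 1.3e-10) and 4.71-fold in WT (2.24 ± 0.15, adjusted p = 1.8e-10), and by T32 had fallen again with a log2 change of −2.16 ± 0.15 in KO and −1.96 ± 0.15 in WT (adjusted p = 7e-10 and 3.1e-09).

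Kars and Rars charge lysine and arginine. In KO libraries Kars had 23.5, 17.2 and 19.4 RPKM at T0, 52.2, 52.2 and 55.9 at T6, 26, 23.1 and 30.1 at T16, and 31.4, 29 and 32.9 at T32. In WT libraries Kars had 18.4, 21.1 and 19.9 RPKM at T0, 56.2, 43.2 and 63.7 at T6, 33.4 and 38.5 at T16, and 34.1, 30.7 and 34.4 at T32. T6 lay above every other time point in both genotypes. Kars rose at T6 by 1.41 ± 0.14 in KO and 1.45 ± 0.14 in WT (edgeR adjusted p = 5.1e-08 and 3.5e-08). A processed pseudogene, Kars-ps1, could share some of its reads.

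In KO libraries Rars had 33.6, 23.2 and 28.6 RPKM at T0, 73.9, 78.1 and 83 at T6, 36.7, 33 and 44 at T16, and 35.7, 33.9 and 37.8 at T32. In WT libraries Rars had 27.6, 26.5 and 30.4 RPKM at T0, 75.6, 66.6 and 81.3 at T6, 39.8 and 46.6 at T16, and 36.6, 37.2 and 37.4 at T32. Its T6 libraries (66.6 to 83) likewise stood above all others (23.2 to 46.6). Rars rose at T6 by 1.46 ± 0.14 in KO and 1.40 ± 0.14 in WT (edgeR adjusted p = 1.3e-08 and 2.4e-08). With library totals these rises were smaller but still called, at 1.47 in KO and 1.43 in WT for Wars, 0.58 and 0.65 for Kars and 0.63 and 0.60 for Rars.

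Farsa and Farsb encode the α and β subunits of 1 enzyme, phenylalanyl-tRNA synthetase, and they moved in opposite directions. In KO libraries Farsa had 23.6, 22.4 and 20.5 RPKM at T0, 32.8, 32.8 and 35.2 at T6, 18.2, 18.1 and 18.7 at T16, and 19.8, 18.8 and 21.8 at T32. In WT libraries Farsa had 24.6, 22.7 and 22.1 RPKM at T0, 33.6, 29.8 and 35.7 at T6, 26.4 and 32.8 at T16, and 26.3, 26.8 and 26 at T32. At T6 both genotypes lay above T0, and at T16 and T32 every KO library lay below every WT library. In KO libraries Farsb had 13.6, 15.3 and 16.4 RPKM at T0, 5.21, 7.39 and 6.08 at T6, 11.9, 10.6 and 13.2 at T16, and 16.1, 13.5 and 18.4 at T32. In WT libraries Farsb had 16.4, 15.7 and 15.2 RPKM at T0, 6.49, 8.89 and 8.18 at T6, 17.2 and 16.9 at T16, and 20.6, 22.8 and 17.4 at T32. T6 held the lowest Farsb libraries of each genotype. The log2 ratio of Farsa over Farsb within a library, free of library scaling, was 2.15 to 2.66 at T6 against 0.32 to 0.79 at T0 in KO and 1.74 to 2.37 against 0.52 to 0.59 in WT, and 0.24 to 0.48 in KO and 0.23 to 0.58 in WT at T32. On the TMM scale Farsa rose at T6 by 0.60 ± 0.11 in KO and 0.51 ± 0.11 in WT (edgeR adjusted p = 7.2e-05 and 0.00037), with a reversed sign under library totals as given above, and Farsb fell with a log2 change of −1.28 ± 0.16 in KO and −1.01 ± 0.16 in WT (adjusted p = 6.8e-07 and 1.3e-05). Farsb shares 248 exonic bases with Sgpp2 on the opposite strand.

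Sars and Iars charge serine and isoleucine. In KO libraries Sars had 31.6, 26.4 and 33.1 RPKM at T0, 9.54, 17.7 and 10.7 at T6, 20.7, 20.8 and 21.9 at T16, and 28.7, 25.4 and 28.3 at T32. In WT libraries Sars had 38.4, 35.6 and 43.6 RPKM at T0, 12.8, 17.5 and 17.7 at T6, 26.7 and 31.1 at T16, and 32.3, 28.4 and 29.4 at T32. T6 lay below T0 without overlap in both genotypes, with KO T6 replicate 2 the highest of its group. In KO libraries Iars had 6.04, 5.09 and 5.24 RPKM at T0, 2.35, 1.73 and 2.32 at T6, 5.29, 4.55 and 4.39 at T16, and 5.82, 5.15 and 5.32 at T32. In WT libraries Iars had 5.04, 4.99 and 6.18 RPKM at T0, 2.5, 1.82 and 3.13 at T6, 7.86 and 4.54 at T16, and 9, 8.33 and 7.16 at T32. Iars was lowest at T6 in both genotypes, and at T32 the WT libraries (7.16 to 9) lay above the KO libraries (5.15 to 5.82). Sars fell at T6 with a log2 change of −1.27 ± 0.18 in KO and −1.29 ± 0.18 in WT (edgeR adjusted p = 4.8e-06 and 3.6e-06). Iars fell with a log2 change of −1.35 ± 0.20 in KO and −1.12 ± 0.20 in WT (adjusted p = 7.8e-06 and 6.8e-05). In KO libraries Mars, which charges methionine, had 10.4, 6.49 and 6.39 RPKM at T0, 2.62, 2.64 and 2.76 at T6, 10.8, 11.2 and 10.9 at T16, and 12.3, 10.2 and 10.9 at T32. In WT libraries Mars had 7.8, 7.67 and 7.98 RPKM at T0, 4.1, 2.25 and 5.14 at T6, 13.5 and 12.8 at T16, and 13.7, 12.2 and 13 at T32. T6 lay below all other time points in both genotypes. The largest fall of a synthetase in KO was that of Mars, with a log2 change of −1.54 ± 0.21, against −1.02 ± 0.21 in WT.

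**Figure D3:**
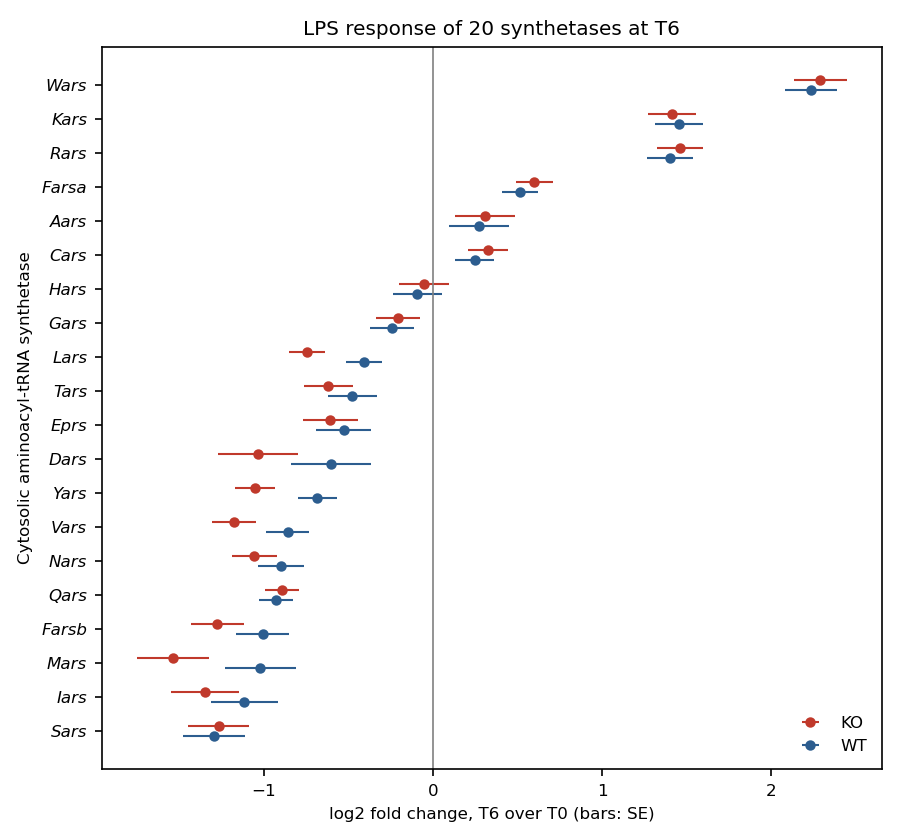
Log2 fold change of the 20 synthetase genes at T6 over T0, with SE bars, KO in red above WT in blue for each gene. Wars, Kars, Rars and Farsa lie above 0 in both genotypes (Farsa below 0 in both with library totals), and 12 genes lie below 0 and past the threshold in both.

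Of the 20 genes, 8 (Dars, Eprs, Iars, Kars, Lars, Mars, Qars and Rars) belong to the multisynthetase complex, in which these enzymes are held together by scaffold proteins. Within it 2 genes rose and 6 fell at T6 in both genotypes, with medians of −0.82 in KO and −0.57 in WT. The other 12 genes gave 3 higher and 6 lower in KO and 2 higher and 6 lower in WT, with medians of −0.41 and −0.36. Of all genes, 26.2% rose and 32.4% fell in KO, and 27.3% rose and 31.9% fell in WT. The difference between the complex and the other genes was not tested. The log2 ratio of Kars over Qars, both of the complex, was 1.6 to 1.78 at T6 against −0.92 to −0.32 at T0 in KO and 1.32 to 1.83 against −0.85 to −0.71 in WT.

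At T16, 5 synthetases were higher and 5 lower than at T0 in KO (20.4% and 23.3% of all genes), and 9 were higher and 1 lower in WT (18.8% and 17.2%). At T32 the counts were 5 higher and 2 lower in KO (18.2% and 20%) and 9 higher and 1 lower in WT (24.5% and 21.9%). The 5 that rose at T32 in both genotypes were Aars, Cars, Eprs, Kars and Yars. Aars, which charges alanine, changed by 0.86 ± 0.18 in KO and 0.63 ± 0.18 in WT (edgeR adjusted p = 0.00072 and 0.0071). Cars, which charges cysteine, changed by 0.76 ± 0.12 in KO and 0.53 ± 0.12 in WT (adjusted p = 4.6e-05 and 0.0012), and Kars by 0.63 ± 0.14 in KO and 0.74 ± 0.14 in WT (adjusted p = 0.0016 and 0.00035). Of the 5, Aars had the highest value in KO and Kars in WT. With library totals Aars and Cars stayed called in KO (0.53 and 0.41, adjusted p = 0.012 and 0.0078) and not in WT (0.31 and 0.21, adjusted p = 0.12 and 0.14), and Yars in KO had the opposite sign (−0.04). Single libraries ended the KO calls of Eprs (2 libraries, adjusted p up to 0.17, without KO T0 replicate 2) and Yars (15 libraries, up to 0.25, without KO T32 replicate 1) and the WT call of Eprs (2 libraries, up to 0.068, without WT T0 replicate 1). The medians of the synthetases at T32 were 0.13 in KO and 0.32 in WT, beside −0.02 and 0 over all genes tested. In KO libraries Aars had 29.1, 14.8 and 21.9 RPKM at T0, 27.3, 27.4 and 26.7 at T6, 38.8, 35.7 and 38.3 at T16, and 45.2, 36.3 and 38.4 at T32. In WT libraries Aars had 24, 21.7 and 26.9 RPKM at T0, 31.1, 26.2 and 30.4 at T6, 38.7 and 44.8 at T16, and 39.5, 31 and 41.5 at T32. T16 and T32 lay above T0 in both genotypes, which overlapped each other at T32. Aars shares 1326 exonic bases with Exosc6 on the same strand. Farsa was the only member called in opposite directions, higher at T16 in WT (0.36 ± 0.12, adjusted p = 0.024) and lower in KO (−0.27 ± 0.11, adjusted p = 0.044). The test of that difference between genotypes gave −0.63 ± 0.16 and did not pass over all genes (adjusted p = 0.15). With library totals the WT value was −0.09, and the WT call was lost without WT T0 replicate 2 or 3 or WT T16 replicate 2 (adjusted p = 0.061 to 0.28), the KO call without any of 14 libraries (adjusted p = 0.051 to 0.12).

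The series also asks how KO macrophages differ from WT macrophages at a given time, and among the members almost every difference that passed was a lower level in KO. At T0 and T6 none of the 36 members was called by edgeR, where 1.95% and 0.298% of all genes were. At an unadjusted p under 0.05 there were 6 members at T0 and 10 at T6, all lower in KO, and DESeq2 called 0 and 1. The shares of all genes by these measures are not given here. These counts therefore cannot be set against the shares above or read as particular to the members. At T16, 6 members were lower in KO and none higher, against 3.48% and 4.16% of all genes. They were Vars, Shmt2, Farsa, Yars, Gars and Qars. At T32, Vars, Shmt2, Farsa and Psat1 were lower and Atf3 was higher. The all-gene median was −0.01 at T16 and −0.01 at T32, and −0.18 and −0.20 with library totals, which called 11 members lower at T16 and 8 lower with none higher at T32.

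Vars, the valyl-tRNA synthetase (ENSMUSG00000007029, GRCm38 chr17:35000987-35016322, plus strand), had the largest called difference among the members at T16 and at T32. In KO libraries Vars had 10.6, 11 and 9.19 RPKM at T0, 4.56, 4.09 and 4.94 at T6, 5.64, 6 and 5.91 at T16, and 6.7, 5.62 and 6.98 at T32. In WT libraries Vars had 9.75, 10 and 8.77 RPKM at T0, 5.56, 4.57 and 5.56 at T6, 10.3 and 12.9 at T16, and 10.5, 12 and 10.5 at T32. The genotypes overlapped at T0 and T6, but at T16 and T32 every KO library (5.62 to 6.98) lay below every WT library (10.3 to 12.9). Vars was lower in KO with a log2 difference of −0.99 ± 0.14 for T16 and of −0.78 ± 0.13 for T32 (edgeR adjusted p = 7e-04 and 0.00097), and both calls held when any single library was left out. The differences at T0 and T6 were 0.11 ± 0.13 and −0.21 ± 0.13 (adjusted p = 0.85 and 0.69). After its fall at T6, with a log2 change of −1.18 ± 0.13 in KO and −0.86 ± 0.13 in WT, Vars lay above its T0 range at T16 and T32 in WT and below its T0 range in KO.

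Vars was also the only member whose genotype difference changed over time by edgeR's test of that change. From T0 to T16 the difference moved by −1.09 ± 0.19 (edgeR adjusted p = 0.025), from T0 to T32 by −0.88 ± 0.18 (adjusted p = 0.028), and jointly over the time course the adjusted p was 0.015, where 0.0444%, 0.298% and 0.456% of all genes were called. No member was called from T0 to T6, where 0.101% of all genes were. At an unadjusted p under 0.05 there were 2 members, a count given without the share of all genes, and DESeq2 called 0. The T16 call ended without KO T0 replicate 1 (adjusted p = 0.054), KO T16 replicate 1 (0.095), 2 (0.062) or 3 (0.086), WT T0 replicate 3 (0.097) or WT T16 replicate 2 (−0.92, adjusted p = 0.21). The T32 call ended without KO T0 replicate 1 (0.06) or 2 (0.054), KO T32 replicate 1 (0.061) or 2 (0.1), WT T0 replicate 3 (0.094) or WT T32 replicate 2 (0.095). The joint call ended only when the 4 WT libraries holding Y-linked transcripts were left out (adjusted p = 0.11). The log2 ratio of Vars over Cars within a library, free of scaling, was −1.66 to −1.55 in KO and −0.84 to −0.83 in WT at T16, −1.82 to −1.41 and −1.02 to −0.41 at T32, and −0.27 to −0.14 and −0.69 to −0.25 at T0.

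**Figure D4:**
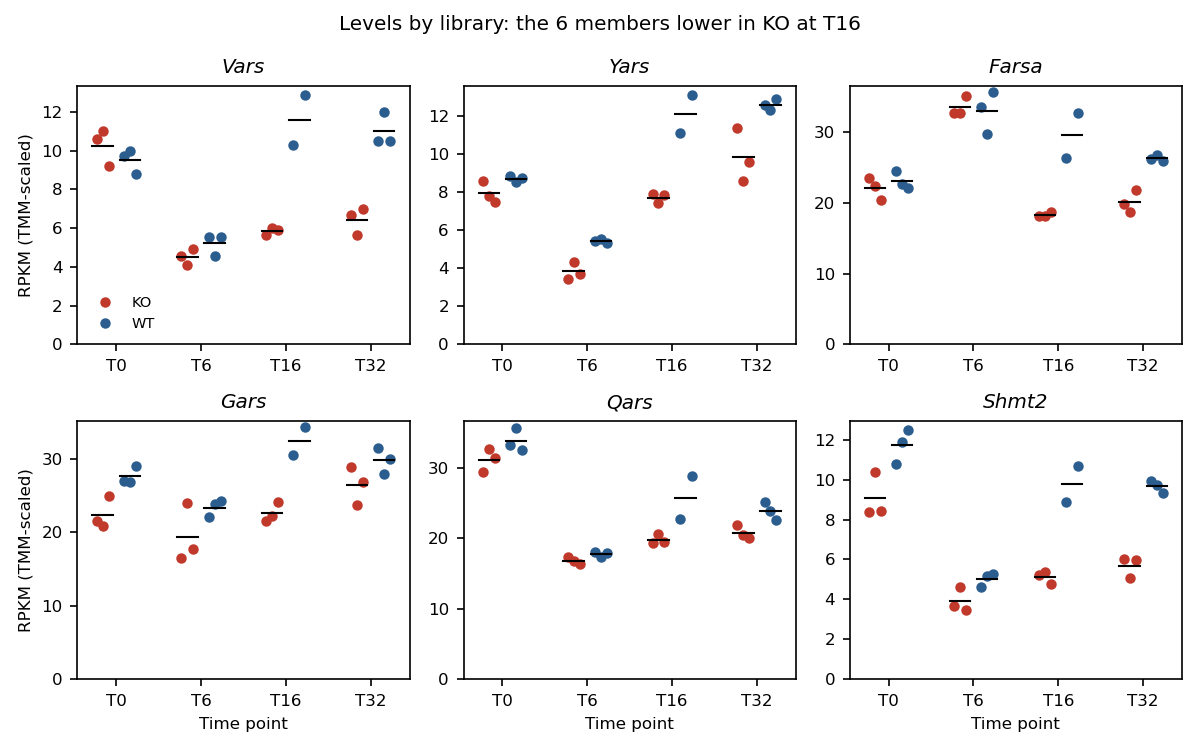
RPKM of the 6 members called lower in KO at T16, by library and time point, KO in red at the left of each pair and WT in blue at the right, with a bar at the group mean. For all 6, which were picked by their T16 call in these libraries, the 3 KO libraries at T16 lie below the 2 WT libraries. All but Gars lie apart at T32 as well. The genotypes did not overlap in 21 of the 36 members at T16 and in 16 at T32. The share over all genes was not counted, so these counts cannot be read as particular to the members.

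Shmt2, whose levels are given above, was lower in KO with a log2 difference of −0.93 ± 0.15 for T16 and −0.76 ± 0.13 for T32 (edgeR adjusted p = 0.0015 and 0.0016), calls that no single library ended. Farsa was lower with a log2 difference of −0.69 ± 0.12 at T16 and −0.39 ± 0.11 at T32 (adjusted p = 0.0027 and 0.033). Its T16 call ended without WT T16 replicate 2 (−0.53, adjusted p = 0.064), and its T32 call without KO T32 replicate 1 or 2 or any of the 3 WT T32 libraries (−0.40 to −0.34, adjusted p = 0.064 to 0.16), and with no expression filter (−0.38, adjusted p = 0.23). Without the Y-positive WT libraries both calls ended (−0.53 and −0.40, adjusted p = 0.096 and 0.054). Psat1 was lower at T32 with a log2 difference of −0.74 ± 0.22 (adjusted p = 0.047). That call ended without any of 13 libraries: all 6 at T32, all 3 KO at T16, KO T6 replicates 1 and 3 and replicate 3 of both T0 groups (−0.86 to −0.57, adjusted p = 0.053 to 0.23), with Y-linked transcripts as a covariate (−0.64, adjusted p = 0.056), and with RLE or the authors' size factors (−0.73, adjusted p = 0.053 in both).

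Yars charges tyrosine. In KO libraries Yars had 8.57, 7.81 and 7.46 RPKM at T0, 3.43, 4.33 and 3.72 at T6, 7.91, 7.41 and 7.83 at T16, and 11.4, 8.57 and 9.57 at T32. In WT libraries Yars had 8.83, 8.55 and 8.75 RPKM at T0, 5.42, 5.52 and 5.32 at T6, 11.1 and 13.1 at T16, and 12.6, 12.3 and 12.9 at T32. KO lay below WT without overlap at T6, T16 and T32. Yars was lower in KO with a log2 difference of −0.65 ± 0.13 at T16 (edgeR adjusted p = 0.0051), a call lost without WT T16 replicate 2 (−0.53, adjusted p = 0.091), and the differences at T6 and T32 were −0.50 ± 0.12 and −0.36 ± 0.12 (adjusted p = 0.075 and 0.07).

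Gars and Qars charge glycine and glutamine. In KO libraries Gars had 21.5, 20.8 and 24.9 RPKM at T0, 16.5, 24 and 17.7 at T6, 21.5, 22.2 and 24.1 at T16, and 28.9, 23.7 and 26.9 at T32. In WT libraries Gars had 27, 26.8 and 29.1 RPKM at T0, 22.1, 23.8 and 24.2 at T6, 30.6 and 34.3 at T16, and 31.5, 27.9 and 30 at T32. KO lay below WT without overlap at T0 and T16 only. In KO libraries Qars had 29.4, 32.7 and 31.4 RPKM at T0, 17.3, 16.7 and 16.3 at T6, 19.3, 20.6 and 19.5 at T16, and 21.9, 20.4 and 20.1 at T32. In WT libraries Qars had 33.3, 35.7 and 32.5 RPKM at T0, 18.1, 17.3 and 17.9 at T6, 22.7 and 28.8 at T16, and 25.2, 23.9 and 22.6 at T32. Qars in KO lay below WT at T16 and T32, and at T6 the groups met at 17.3. At T16 Gars was lower in KO with a log2 difference of −0.52 ± 0.14 and Qars of −0.38 ± 0.11 (edgeR adjusted p = 0.03 and 0.042). The Gars call was lost without any KO T16 library or WT T16 replicate 2 (adjusted p = 0.06 to 0.25), and the Qars call without any of 15 libraries, up to adjusted p = 0.49 and −0.20 without WT T16 replicate 2.

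The counts of calls in this paragraph come without the share of all genes and cannot be read as particular to the members. WT T16 rests on 2 libraries, and replicate 2 both stood apart and held Y-linked transcripts. Without it, Vars (−0.81, edgeR adjusted p = 0.026) and Shmt2 (−0.79, adjusted p = 0.037) stayed lower in KO at T16, from a single WT library that is assumed to vary like the other groups, and the other 4 did not pass. With the 4 WT libraries holding Y-linked transcripts left out, only Vars of the 36 members was called lower at T16. With the KO T16 and WT T16 libraries fitted alone, no member was called lower (Vars −1.01, adjusted p = 0.078), and with the T32 libraries alone 9 were lower and 2, Ddit3 and Ppp1r15a, higher, Atf3 not passing (0.70, adjusted p = 0.071). Without the 4 libraries that stood apart, 8 members were lower and Atf3 was higher (0.95, adjusted p = 0.024) at T16, and 9 were lower and 2, Atf3 and Ddit3, higher at T32.

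Markers of other cells moved with genotype too. The 11 neutrophil and granulocyte precursor genes summed to 371 to 468 CPM in KO and 154 to 342 CPM in WT at T16 and to 195 to 286 CPM in KO and 70.6 to 89.4 CPM in WT at T32. None of the 11 was at 0 in any library. On average 6 of them were higher and none lower in KO, against 12.1% and 10.3% of all genes. Summed stromal and endothelial genes were at 154 to 320 CPM in KO and 420 to 436 CPM in WT at T16, and 113 to 308 and 74 to 456 CPM at T32. The part of these cells in the genotype differences was not tested.

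Averaged over the 4 time points, which uses all 23 libraries, 19 members were lower and 1 higher in KO, against 10.3% and 12.1% of all genes tested. The test treated the 23 libraries as independent. Any mouse or culture shared between time points is not allowed for in its p-values. Counts under the alternatives below come without the share of all genes called under the same alternative. They cannot be read as particular to the members. The lower ones were 2 of the stress regulators (Ddit4 and Chac1), 6 of the 8 enzymes (Asns, Psat1, Phgdh, Shmt2, Mthfd2 and Pck2) and 11 of the 20 synthetases (Gars, Hars, Iars, Lars, Qars, Sars, Tars, Vars, Yars, Farsa and Farsb), and Atf3 was the higher one. All 8 enzymes and 18 of the 20 synthetases had a value below 0, with medians of −0.49 and −0.23 beside −0.02 over all genes, on the TMM scale. With library totals the median over all genes was −0.19 and 28 members were lower. The medians of the enzymes and synthetases with library totals are not given here. The largest differences in log2 were those of Phgdh (given above), Chac1 and Shmt2 (−0.60 ± 0.07, edgeR adjusted p = 5.7e-06). Psat1 was lower with a log2 difference of −0.55 ± 0.11, Pck2 of −0.47 ± 0.09 and Asns of −0.50 ± 0.13 (adjusted p = 0.0012, 0.0012 and 0.0075), and Mthfd2 of −0.28 ± 0.07 (adjusted p = 0.0086). Of the synthetases, Vars was lower with a log2 difference of −0.47 ± 0.07, Yars of −0.41 ± 0.06, Gars of −0.32 ± 0.07, Farsb of −0.31 ± 0.08 and Sars of −0.32 ± 0.09 (adjusted p = 5.4e-05, 8.2e-05, 0.002, 0.0075 and 0.015). With Y-linked transcripts as a covariate 14 members were lower, the calls of Ddit4, Chac1, Mthfd2 (−0.23, adjusted p = 0.057), Hars (−0.23, adjusted p = 0.077) and Qars (−0.16, adjusted p = 0.058) having ended. With the 4 WT libraries holding those transcripts left out 12 were lower, the calls of Phgdh (−1.12, adjusted p = 0.05) and Tars (−0.27, adjusted p = 0.052) ending as well, and Mthfd2 stood at −0.22 (adjusted p = 0.089). Without the 4 libraries that stood apart 25 were lower.

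**Figure D5:**
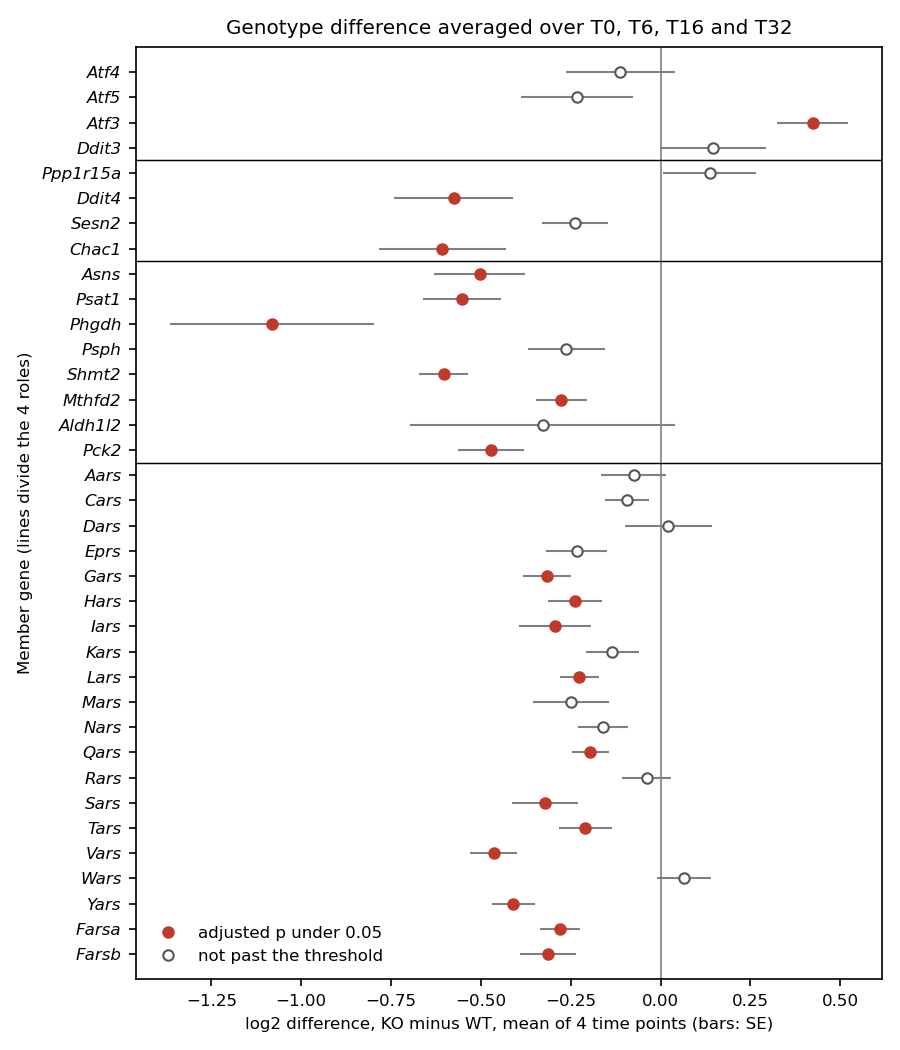
KO minus WT difference in log2 of each member, averaged over T0, T6, T16 and T32, with SE bars; filled points passed the adjusted p of 0.05. All 8 enzymes and 18 of the 20 synthetases lie below 0, 19 of the 36 members passed below 0 and Atf3 passed above it.

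Of the synthetases, Hars, Lars, Tars, Iars, Sars and Farsb entered this average without being called at a single time point. Hars charges histidine and Lars leucine. In KO libraries Hars had 21.5, 22.9 and 26.5 RPKM at T0, 19.4, 28.4 and 20.6 at T6, 20.5, 18.9 and 20.4 at T16, and 24.6, 21 and 24.5 at T32. In WT libraries Hars had 25.2, 29 and 24.6 RPKM at T0, 21.7, 30.1 and 22.3 at T6, 25 and 27.8 at T16, and 28, 29.2 and 27.8 at T32. KO lay below WT at T16 and T32, and the T6 groups overlapped. In KO libraries Lars had 11.7, 9.52 and 10.9 RPKM at T0, 6.4, 6.22 and 6.49 at T6, 11.4, 11.1 and 11.1 at T16, and 13.9, 11.2 and 12.8 at T32. In WT libraries Lars had 10.9, 10.5 and 10.8 RPKM at T0, 7.86, 7.67 and 8.66 at T6, 15.1 and 13.5 at T16, and 15.5, 14.1 and 14.2 at T32. KO lay below WT at T6, T16 and T32, and at T0 the WT libraries lay inside the KO range. Hars was lower with a log2 difference of −0.24 ± 0.08 (edgeR adjusted p = 0.029), a call that leaving out any of 7 libraries ended (adjusted p = 0.051 to 0.069), and Lars of −0.23 ± 0.05 (adjusted p = 0.0053), which none ended. Hars shares 195 exonic bases with Hars2 on the opposite strand.

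Tars charges threonine. In KO libraries Tars had 12.7, 12.6 and 14.7 RPKM at T0, 7.11, 11 and 7.95 at T6, 13.2, 12.5 and 13 at T16, and 15.7, 12.6 and 15.6 at T32. In WT libraries Tars had 13.5, 14.2 and 15.4 RPKM at T0, 9.64, 11.1 and 10.2 at T6, 17.7 and 14.8 at T16, and 17.9, 15.8 and 14.9 at T32. The genotypes were separated at T16 only. Tars was lower with a log2 difference of −0.21 ± 0.07 and Iars of −0.29 ± 0.10 (edgeR adjusted p = 0.048 and 0.04), and leaving out any of 17 libraries ended the Tars call (adjusted p = 0.057 to 0.098) and any of 15 the Iars call (adjusted p = 0.051 to 0.14).

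Other genes of the pathway, 62 by list of which 60 were tested, were read beside the members. At T6, 13 rose and 31 fell in KO (26.2% and 32.4% of all genes) and 13 rose and 31 fell in WT (27.3% and 31.9%). The largest changes in KO were those of Jdp2, a factor that dimerises with ATF proteins (4.28 ± 0.16, edgeR adjusted p = 4.9e-14), Nupr1, a stress-induced chromatin protein (4.18 ± 0.38, adjusted p = 1.1e-08), and Slc7a11, the cystine transporter (3.42 ± 0.25, adjusted p = 3.5e-10). In WT they were those of Nupr1 (3.93 ± 0.38), Jdp2 (3.71 ± 0.15) and Cth, which makes cysteine (3.41 ± 0.69), with adjusted p = 2.2e-08, 2.3e-13 and 0.00028. Of the 17 mitochondrial synthetases 14 fell and none rose at T6 in both genotypes, with medians of −1.02 in KO and −0.89 in WT, where 32.4% of all genes fell in KO and 31.9% in WT. Of the 13 genes of eIF2 and its kinases, 3 rose and 5 fell in KO and 3 rose and 4 fell in WT.

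At T32 against T0, 11 of the 60 rose and 15 fell in KO (18.2% and 20% of all genes) and 14 rose and 11 fell in WT (24.5% and 21.9%), shares near those of all genes. Gdf15, a secreted stress cytokine, fell with a log2 change of −2.67 ± 0.61 in KO and of −2.65 ± 0.61 in WT (edgeR adjusted p = 0.002 and 0.0017). Between genotypes, Eif2ak2, the kinase PKR that senses double-stranded RNA, was the only one called at T0, higher in KO by 1.11 ± 0.18 (adjusted p = 0.00089). Jdp2 was the only one at T6, higher in KO by 0.76 ± 0.14 (adjusted p = 0.015). Of all genes 1.95% were called at T0 and 0.298% at T6, in either direction. At T16, 3 were higher and 7 lower in KO, against 4.16% and 3.48% of all genes. Ppp1r15b, the constitutive eIF2 phosphatase subunit, was higher by 0.95 ± 0.16 (adjusted p = 0.0026). Sars2, the mitochondrial seryl-tRNA synthetase, was lower with a log2 difference of −0.95 ± 0.19, and Jdp2 was higher by 0.89 ± 0.16 (adjusted p = 0.0051 and 0.0029). At T32, 2 were higher and 1 lower, against 3.05% and 3.34% of all genes. Averaged over time 4 were higher and 16 lower, against 12.1% and 10.3% of all genes. Among them were 7 of the 17 mitochondrial synthetases, all lower.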

How the data were processed

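Polyadenylated RNA of 23 libraries was sequenced as single-end reads of 50 bp from an unstranded kit, per the labels' protocols. The authors aligned reads with GSNAP to GRCm38, per the submitters' processing notes, which name no version. Whole-number counts per gene were deposited by the authors, and the files of the single libraries held the same values in 23 of 23 cases. The deposited RPKM values differ from plain RPKM by a factor of 0.718 to 1.684 per library and gave an alternative scaling.

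Counts were tested with edgeR 4.0.16 in R 4.3.3, with TMM scaling, its filter on low counts (15782 of 52636 genes kept), 1 mean per genotype and time point over all 23 libraries, the robust quasi-likelihood test with a prior count of 1, and Benjamini-Hochberg adjustment over all genes tested. The SE is the log2 fold change over the root of the F statistic. Groups came from the labels, and replicates were numbered in accession order. None was merged, since all replicates differed beyond sampling noise (chi-square over degrees of freedom of 13.92 to 188.14). DESeq2 1.42.0 and other scalings, filters and subsets of libraries were alternatives. The scripts were tested on simulated data. Promoter windows came from RefSeq and exon overlaps from the GENCODE annotation of the same build.

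The members and gene lists were chosen with earlier results of these data known. Values in every library are given for the members called between genotypes and, in each role, for the 3 with the largest called changes in WT at T6 and at T32, and Atf4, which the rule does not take in, was added for its place in the pathway. Of the other pathway genes, those with the 3 largest called changes in a comparison could be named.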

Additional observations from a re-analysis of the deposited data

Results flagged for a closer look

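The genotype difference of Vars changed with time by a test of the change itself: it moved by −1.09 on the log2 scale from T0 to T16 (edgeR adjusted p = 0.025) and by −0.88 from T0 to T32 (adjusted p = 0.028), with mean levels of 10.3, 4.53, 5.85 and 6.43 RPKM at T0, T6, T16 and T32 in KO and 9.51, 5.23, 11.6 and 11 RPKM in WT. No other member passed that test in edgeR, and DESeq2 called 2 members lower to T16 and 1 to T32. Leaving out any 1 of 6 libraries ended the T16 call, and any 1 of 6 the T32 call. With no expression filter neither passed in edgeR (adjusted p = 0.066 and 0.11).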

How the results depend on the processing

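Of the 202 pairs of a member and a comparison that edgeR called, 121 kept direction and call under every alternative run and 81 did not. RLE size factors and the authors' factors moved no split of higher against lower calls by over 10 percentage points. No paired analysis was run, because the labels give no replicate numbers and name no shared animal, culture or batch. The titles hold serial numbers whose meaning is not stated, and the WT library with Y-linked transcripts has the last serial number at each time point. Whether a place in that order marks a source was not tested. Groups of 2 or 3 libraries limit every comparison, WT T16 most, and the cause of the shifts below was not tested. Counts of calls under an alternative, here and in the results, come without the share of all genes called under that alternative. A shift in such a count may be general and cannot be read as particular to the members.

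With library totals, members higher and lower numbered 5 and 24 in KO and 5 and 28 in WT at T6, 1 and 20 in KO and 2 and 8 in WT at T16, and 3 and 11 in KO and 3 and 12 in WT at T32, all against T0, and 4 were lower at T32 against T6 in KO. KO against WT gave 1 lower at T6, 11 lower at T16, and 8 lower and 0 higher at T32. Signs turned for Aars at T6 (−0.52 in KO, −0.54 in WT), Cars at T6 (−0.51 in KO, −0.56 in WT), Farsa at T6 (−0.24 in KO, −0.29 in WT), Farsa in WT at T16 (−0.09) and from T6 to T32 (0.17), Ppp1r15a in WT at T6 (−0.71) and Yars in KO at T32 (−0.04). At T16 they turned for Gars (−0.44), Kars (−0.05), Rars (−0.03) and Sesn2 (−0.43) in KO, for Lars (−0.38 in KO, −0.02 in WT) and for Wars (−0.42 in KO, −0.02 in WT).

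Without the 4 libraries that stood apart, 13 members were higher at T32 in KO, 8 lower at T16 and 11 lower at T32 in WT, and KO against WT gave 2 lower at T6, 1 higher at T16, and 2 higher and 9 lower at T32. The genotype difference then changed from T0 to T16 in 0 members, and Atf4 from T6 to T32 in KO was 0.53. With the WT libraries holding Y-linked transcripts left out, 5 members were higher at T16 and 6 at T32 in WT, KO against WT gave 1 higher and 1 lower at T16 and 12 lower on average, and the tests of a changing difference called 0 to T16, 0 to T32 and 0 jointly. With these transcripts as a covariate 1 member was higher in KO at T16 and 14 were lower on average.

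With the compared groups fitted alone, 5 members were higher at T16 in KO, 7 higher at T16 and 11 lower at T32 in WT, KO against WT gave 0 lower at T16 and 2 higher and 9 lower at T32, and the difference changed to T16 in 0. With no expression filter 5 were higher at T16 in KO, 2 lower at T16 in WT, and 0 changed to T16 and 0 to T32. DESeq2 called 1 lower in KO at T6, 2 whose difference fell to T16 and 2 jointly.

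Leaving out 1 library at a time gave, for KO, 7 to 9 higher and 17 to 20 lower at T6, 5 to 9 and 6 to 10 at T16, 5 to 12 and 5 to 6 at T32, and 19 to 23 and 8 to 9 at T32 against T6. For WT it gave 7 to 9 higher and 17 to 18 lower at T6, 8 to 13 and 3 to 5 at T16, 8 to 12 and 3 to 9 at T32, and 17 to 21 and 6 to 7 at T32 against T6. KO against WT gave 0 to 1 lower at T0 and at T6, 2 to 7 lower at T16, 0 to 1 higher and 2 to 6 lower at T32, and 1 higher and 16 to 21 lower on average. The changing difference was called in 0 to 2 members to T16, 0 to 1 to T32 and 1 to 2 jointly.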
